A study of Mus musculus with 17 samples.

Results

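The Serpin family, the serine protease inhibitors and their non-inhibitory relatives, was read out in mouse liver RNA as all genes of the normalized count table whose symbol starts with Serpin. The rule gave 48 of 24676 genes. They fall into clade A with 27 genes, clade B with 12, clades E and F with 2 each, and clades C, D, G, H and I with 1 each. Of the 48, 30 reached 10 normalized counts in 4 or more libraries and were tested. A member that passed only through the group where it is high had to differ, so counts over the 30 describe the tested members and not the family. The other 18, 10 of clade A, 7 of clade B and Serpini1 (neuroserpin), were too low to test.

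Serpins trap proteases: the protease cleaves an exposed stretch of the inhibitor, the reactive centre loop, and is then held in an inactive complex. Hepatocytes secrete most of the serpins of blood plasma, which restrain neutrophil elastase, the clotting enzymes, plasmin and the first complement component. A few members have given up inhibition and carry hormones or fold collagen. Clade B serpins stay mostly inside cells and guard them against their own granule and lysosomal proteases.

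The 17 libraries came from the liver of 11-week-old male mice, of a strain given as mixed (the age is that of the sample labels, while the design text of the series gives 9 weeks), all with loxP-flanked (floxed) Gata4 alleles (Gata4 fl/fl). Mice of the control groups had received an empty adeno-associated virus of serotype 8 (AAV8) at 10 weeks of age, and mice of the Gata4LKO groups AAV8-Tbg-Cre, in which the Tbg promoter directs Cre recombinase to hepatocytes. At 1 week after the injection they were gavaged with 40 mg/kg GW3965, an agonist of the liver X receptors, or with dimethylsulfoxide in canola oil (vehicle), at 17 h and 8 h before sacrifice, and were fasted for 4 h. By the sample titles there were 4 control vehicle libraries (replicates 1 to 4), 4 Gata4LKO vehicle libraries (5 to 8), 4 control GW3965 libraries (9, 10, 12 and 13) and 5 Gata4LKO GW3965 libraries (14 to 18). The treatment field of the labels gives the opposite treatment for Gata4LKO vehicle and control GW3965, and the titles were followed. The labels do not say whether the libraries stand for separate mice. The p-values set differences of groups against the spread between these libraries, which may be technical.

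Libraries held 11.8 to 22.05 M reads in genes. Albumin (Alb), a hepatocyte marker, was between 895197 and 1722490 normalized counts in every library, which does not measure the share of other cells. Gata4 counts ran from 128 to 183 in control vehicle and from 137 to 234 in the vehicle libraries labelled Gata4LKO. With GW3965 they ran from 164 to 258 in control and from 160 to 260 in the libraries labelled Gata4LKO. The targeted gene was thus not lower in the libraries labelled Gata4LKO, counts by exon are not used here, and every genotype comparison is one of labels. In 5 libraries (replicates 1, 10, 13, 17 and 18) mitochondrially encoded genes took 15.6% to 32.6% of counts, against 6.06% to 7.26% in the other 12. Gm5345 was below 5 normalized counts in 6 libraries, all 4 Gata4LKO vehicle libraries and replicates 9 and 10 of control GW3965, and between 23.1 and 101 in the other 11. Kupffer cell markers summed to 2477 to 3450 in control vehicle and to 4286 to 7145 in the other groups. None of the 12 was at 0 in all 17 libraries. In bulk liver, fewer cells of a type and less RNA per cell cannot be told apart.

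Of the 48 genes, 26 lie on chromosome 12, between positions 103614786 and 104414329 of the mm10 build. This stretch of 799.5 kb holds the antitrypsin genes Serpina1a to Serpina1e and the Serpina3 genes, 2 sets of tandem copies, and 16 of its members were tested. Counts of near-identical copies can be split or swapped between them, so the coding sequences were compared first. Over 10 pairs, the antitrypsin coding sequences were 91.4% to 96.7% identical. Only 20.7% of the 50-base windows of Serpina1c exons were unique in the annotated transcripts, 42.4% for Serpina1a, 49.1% for Serpina1d, 65.4% for Serpina1e and 70.5% for Serpina1b. The copies differ most where the reactive centre loop is encoded. The 60 bases below, 1101 to 1160 of the 1239-base coding sequence (1170 to 1229 of 1308 in Serpina1a), are the gap-free window with the most positions that vary, 18, against 4.25 in the mean window. They are shown because they encode the stretch that a protease cleaves and hold the bases by which reads of the copies can be told apart. Capitals mark the varying positions.

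Serpina1a: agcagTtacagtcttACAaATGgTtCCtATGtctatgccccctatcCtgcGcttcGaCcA
Serpina1b: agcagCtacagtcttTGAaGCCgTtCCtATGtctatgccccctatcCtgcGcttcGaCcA
Serpina1c: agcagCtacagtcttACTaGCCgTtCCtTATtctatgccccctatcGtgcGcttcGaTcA
Serpina1d: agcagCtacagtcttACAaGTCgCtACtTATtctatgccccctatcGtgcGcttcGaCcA
Serpina1e: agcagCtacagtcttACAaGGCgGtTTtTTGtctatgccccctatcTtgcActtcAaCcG

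The Serpina3 coding sequences have diverged further, with 72.1% to 91.0% identity over 10 pairs of Serpina3c, Serpina3f, Serpina3k, Serpina3m and Serpina3n. In them 80.9% (Serpina3m), 86.0% (Serpina3k), 89.4% (Serpina3f) and 95.7% (Serpina3c) of 50-base exon windows were unique. Serpina3m and Serpina3k are shown with the others because both share the annotated start at chr12:104338486, so that their gene models overlap. Their most variable 60-base window lies near the start of the coding sequence (67 to 126 in Serpina3m, 70 to 129 in Serpina3k) and varies at 33 positions, again in capitals.

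Serpina3c: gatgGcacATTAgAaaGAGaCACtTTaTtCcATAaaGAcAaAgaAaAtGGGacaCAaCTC
Serpina3f: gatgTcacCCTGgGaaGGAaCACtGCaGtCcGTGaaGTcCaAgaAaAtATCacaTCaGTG
Serpina3k: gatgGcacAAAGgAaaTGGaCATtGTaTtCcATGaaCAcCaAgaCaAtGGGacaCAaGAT
Serpina3m: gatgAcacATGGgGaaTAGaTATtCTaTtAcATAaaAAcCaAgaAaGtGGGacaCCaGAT
Serpina3n: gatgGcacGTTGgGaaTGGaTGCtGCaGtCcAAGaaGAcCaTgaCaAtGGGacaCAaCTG

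The hormone carrier Serpina7 lies alone on the X chromosome, at chrX:139079257-139085236 on the minus strand, and all of its 50-base exon windows were unique. The 250 bases upstream of its start (RefSeq, GRCm38.p6, chrX:139085237-139085486, minus strand) are shown because Serpina7 was the member that limma called between the genotype labels. A match to the GATA motif AGATAA lies in them on the other strand, read here as the capitals.

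Serpina7: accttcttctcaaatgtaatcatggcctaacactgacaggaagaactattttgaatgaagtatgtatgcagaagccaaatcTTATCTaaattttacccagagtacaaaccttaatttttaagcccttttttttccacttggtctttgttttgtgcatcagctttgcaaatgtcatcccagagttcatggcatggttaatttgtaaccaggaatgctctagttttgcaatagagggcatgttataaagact

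This motif, searched on both strands, was in 9.99% of 32851 RefSeq windows of the same length and in 8 of the 41 windows of the 35 members that the table holds. Overlapping windows of Serpina7 that hold the same site count separately among these. The related motif TGATAA was in 7.94% of all windows and in 2 of the 41. The direct repeat with a spacer that liver X receptors can bind, DR4, was in 0.0152% of all windows and in 0 of the 41. These counts describe letters in short windows and say nothing of binding.

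Levels spanned more than 4 orders of magnitude. Together the 48 genes took 2.53% ± 0.57 of normalized counts in control vehicle (SD, n = 4) and 2.59% ± 0.36 in Gata4LKO vehicle (n = 4). With GW3965 their share was 2.26% ± 0.31 in control (n = 4) and 1.78% ± 0.53 in Gata4LKO (n = 5). Libraries with a high mitochondrial share were 1 of 4, 0 of 4, 2 of 4 and 2 of 5 in these groups, and without mitochondrially encoded genes in the total the shares were 2.79%, 2.77%, 2.58% and 2.04%. The 6 members with the most counts held 75.5% to 89.0% of all Serpin counts in a library. Per kb of exon, counted over all annotated exons of a gene, Serpina1e had a mean of 59788 normalized counts and Serpina3k 52719. Serpina1c, Serpina1d and Serpina1b followed at 16283, 16069 and 15176. Serping1, Serpina1a, Serpind1, Serpina3n and Serpinf2 formed a next tier between 3618 and 4548 per kb. Neighbours within each of these tiers overlapped across libraries. Serpine2, at 5.86 per kb, was the lowest of the tested members shown. This scale lowers genes with long annotated exons: Serpinc1 had a mean of 26838 counts but, over 8546 exon bases, 3140 per kb. Order among the Serpina1 copies is also uncertain, since many of their exon windows are shared.

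**Figure D1:**
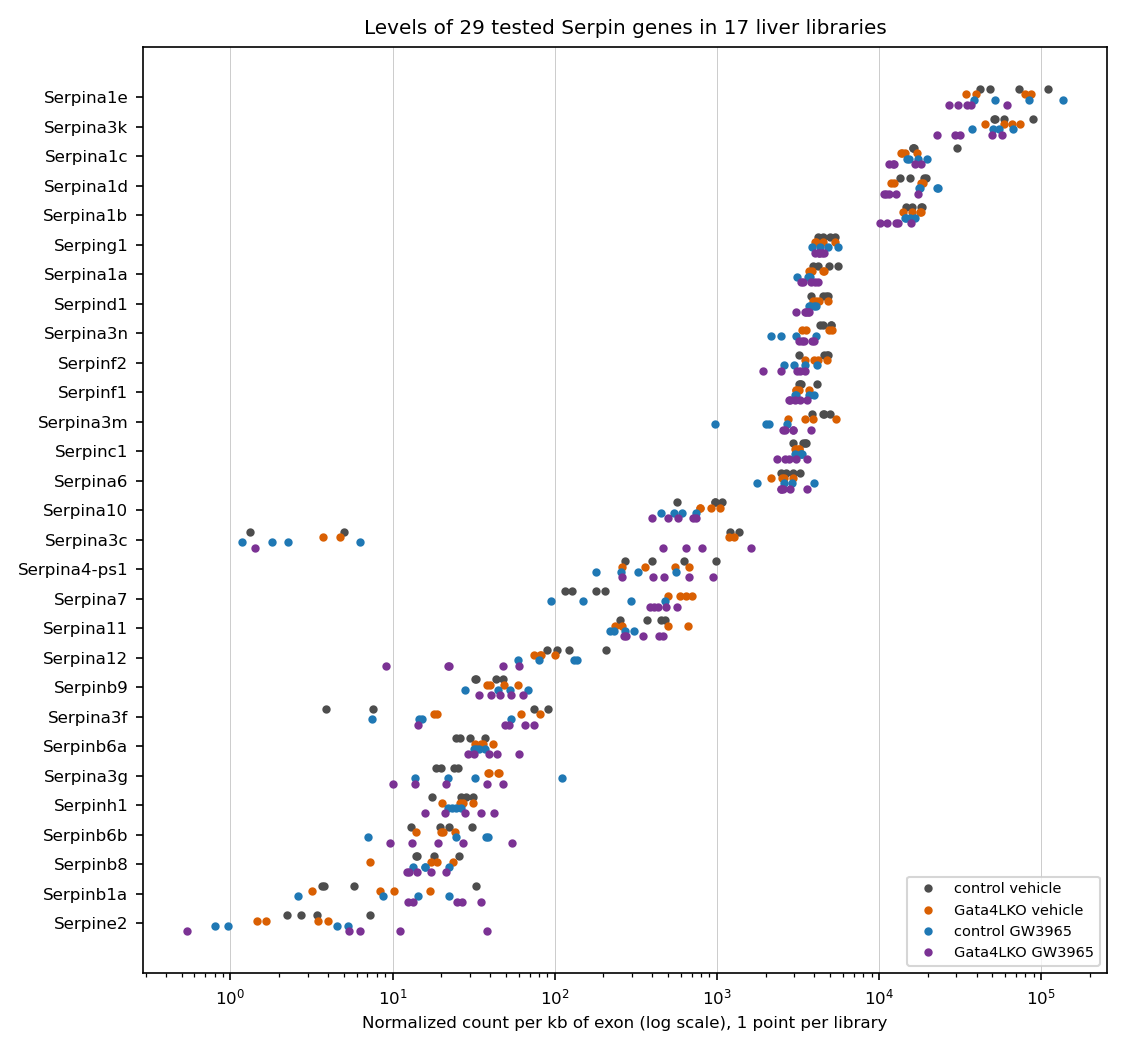
Normalized count per kb of exon (log axis) of 29 tested Serpin genes, 1 point per library, coloured by group and ordered by mean. Serpina3c splits into 8 high and 9 low libraries, with none between.

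Serpina3c (chr12:104146382-104153870) split the libraries into 2 sets that cut across the groups. Its normalized count was 3043, 11.1, 2672 and 2.91 in control vehicle replicates 1 to 4, and 2641, 2816, 8.21 and 10.5 in Gata4LKO vehicle replicates 5 to 8. It was 5.00, 14, 2.62 and 3.99 in control GW3965, and 3.14, 3609, 1029, 1438 and 1806 in Gata4LKO GW3965 replicates 14 to 18. Thus 8 libraries were above 1000 and 9 below 20, with none between. Of the groups, control vehicle and Gata4LKO vehicle had 2 high libraries of 4, control GW3965 had 0 of 4, and Gata4LKO GW3965 had 4 of 5.

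Since Serpina3c defines these sets, its own separation was fixed in advance. Of the 13379 tested genes, 2 had values that did not overlap between the sets, Serpina3c and Serpina1d. How many genes would separate in this way by chance was not tested. Serpina1d (chr12:103763594-103773592) was 21584, 27358, 18734 and 26297 in control vehicle, and 16534, 17248, 25952 and 25489 in Gata4LKO vehicle. With GW3965 it was 24841, 32138, 24794 and 31641 in control, and 24150, 16009, 15425, 17657 and 14943 in Gata4LKO. The 8 libraries high in Serpina3c were the 8 lowest in Serpina1d, at 14943 to 21584 against 24150 to 32138. Serpina3f was between 114 and 209 in the same 8 libraries and between 8.91 and 42.9 in 8 of the other 9, with control GW3965 replicate 9 at 123. Serpina1e ran from 43844 to 78253 in the 8 libraries and from 62796 to 221389 in the others, so these ranges overlapped. Serpina11 also overlapped, at 451 to 1091 against 359 to 611, as did Serpina3k, Serpina1b and Serpina1c. The labels give the strain as mixed, and whether the mice differed in the sequence of this stretch was not tested.

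**Figure D2:**
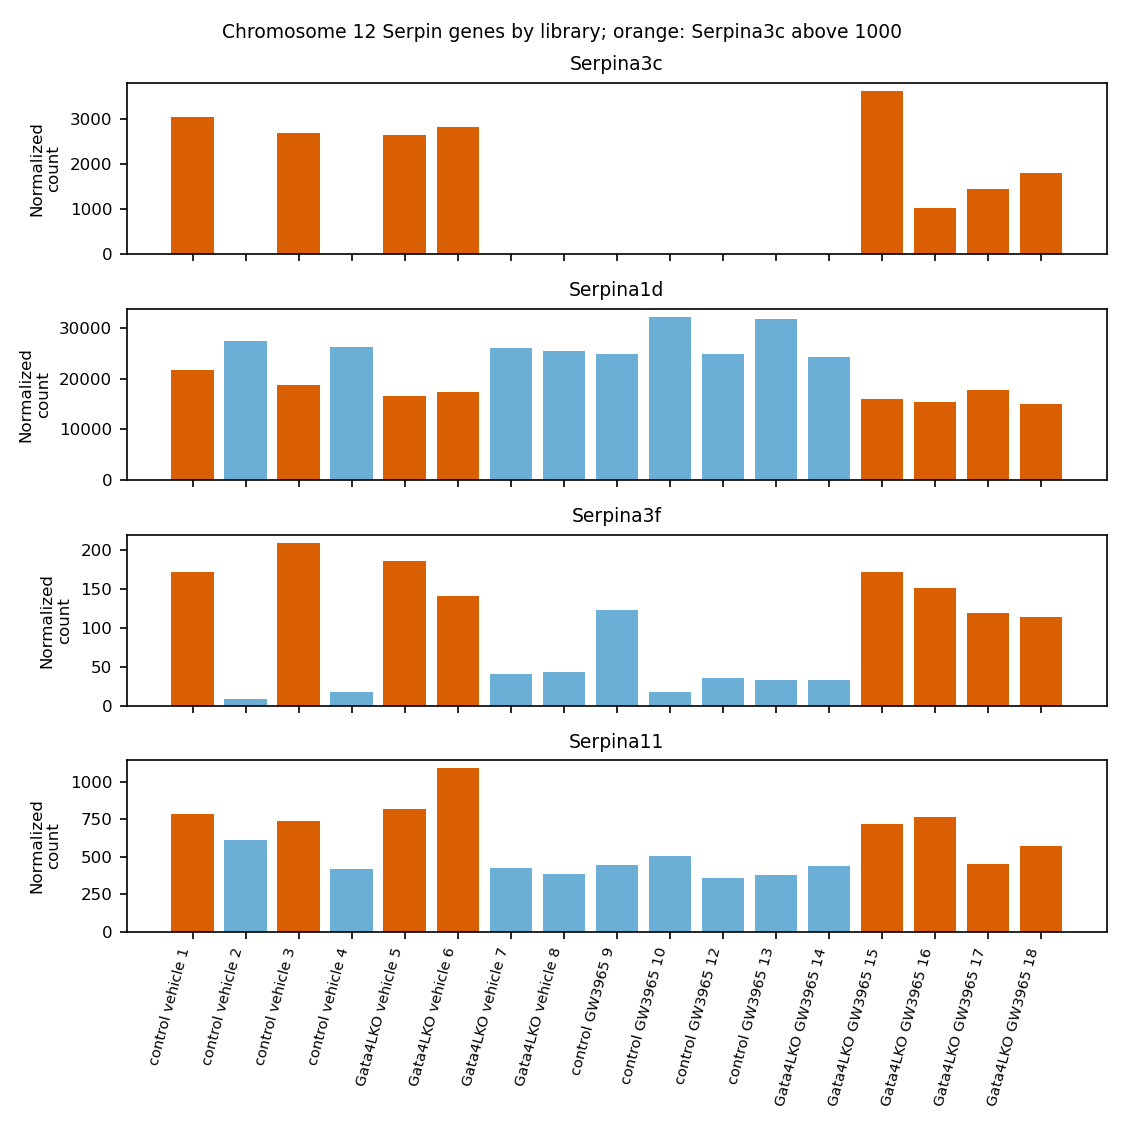
Normalized counts by library of 4 chromosome 12 genes, with the 8 libraries that have Serpina3c above 1000 in orange. Those libraries are the lowest in Serpina1d and, apart from control GW3965 replicate 9, the highest in Serpina3f.

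The groups hold this split in unequal numbers, so some comparisons of these genes are also given without the 8 libraries. Leaving them out keeps 1 library of Gata4LKO GW3965 (replicate 14) and 2 of each vehicle group, so a value with GW3965 in Gata4LKO then rests on a single library that is assumed to vary like the other groups, and such values are no check by replicates. With GW3965, Serpina1d had a mean of 17637 ± 3782 in the libraries labelled Gata4LKO (n = 5) and 28354 ± 4088 in control (n = 4), and these groups did not overlap. The difference was -0.70 ± 0.18 on the log2 scale (SE), with a limma adjusted p of 0.199. With replicate 14 alone against control it was -0.22, and without the libraries of high mitochondrial share -0.45. DESeq2 called Serpina1d at an adjusted p of 0.0412, whereas over 20 alternatives in all the adjusted p ran up to 1.00. Serpina3c itself was called by DESeq2 and in the authors' deposited table for genotype with GW3965 (log2 fold change 7.94 in that table) and for GW3965 in control (-7.81 in that table). Its limma adjusted p-values there were 0.583 and 0.653, and each value sets a group without high libraries beside a mixed one.

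Antitrypsin (alpha-1-antitrypsin, the inhibitor of neutrophil elastase) is encoded by the 5 Serpina1 copies. Their summed count was 210401 ± 52873 in control vehicle, 185992 ± 50837 in Gata4LKO vehicle, 220656 ± 74396 in control GW3965 and 136220 ± 28454 in Gata4LKO GW3965, and all groups overlapped. No copy passed limma in any of the 7 comparisons. Serpina1a, the least abundant copy per kb, was 10225, 7696, 8999 and 7208 in control vehicle and 6683, 6894, 5728 and 6812 in control GW3965. These groups did not overlap, and the difference was -0.38 ± 0.13 (limma adjusted p = 0.272), or -0.19 without the libraries high in Serpina3c. Serpina1b was 33954 to 44012 in Gata4LKO vehicle and 24588 to 38188 in Gata4LKO GW3965, with a difference of -0.40 ± 0.14 (limma adjusted p = 0.276), or -0.25 without the libraries of high mitochondrial share. Serpina1e had the widest spread of the 5, with a within-group coefficient of variation of 45.4% against 11.3% for Serpina1a. With GW3965 it was 61969 ± 22215 in the libraries labelled Gata4LKO and 125858 ± 70625 in control, a difference of -0.92 ± 0.38 (limma adjusted p = 0.687). It was -0.59 without control GW3965 replicate 10, -0.15 without the libraries of high mitochondrial share, and -0.16 with replicate 14 as the 1 library left of Gata4LKO GW3965. For Serpina1c the smallest p was that of genotype averaged over treatments, with a difference of -0.32 ± 0.14 (limma adjusted p = 0.616), or -0.20 without control vehicle replicate 1. Libraries of high mitochondrial share were the highest in Serpina1c within their groups. It was 41241 against 21946 to 22393 in control vehicle and 23800 to 26775 against 20327 to 20843 in control GW3965. In Gata4LKO GW3965 it was 22689 to 24706 against 15657 to 16803.

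Among the Serpina3 genes, relatives of human antichymotrypsin, Serpina3m (chr12:104338486-104394257) fell with GW3965 in control liver. Its counts were 7724, 6666, 8637 and 7872 in control vehicle and 3443, 1665, 3587 and 4645 in control GW3965. All 4 treated libraries lay below all 4 vehicle libraries. From the means on the log2 scale, the level was 0.407-fold of vehicle (95% interval 0.284 to 0.582). This is a log2 difference of -1.30 ± 0.25 with a limma adjusted p of 0.0203. In the libraries labelled Gata4LKO it was 6730, 9296, 4749 and 5998 with vehicle and 4541, 6526, 5081, 4420 and 5057 with GW3965. These groups overlapped, and the difference was -0.36 ± 0.23 (limma adjusted p = 0.520). The interaction of genotype and treatment was 0.94 ± 0.34 (limma adjusted p = 0.896), so the response was not shown to differ between the labels. Averaged over genotypes, Serpina3m fell by 0.83 ± 0.17 on the log2 scale, to 0.563-fold (0.440 to 0.722; limma adjusted p = 0.0148).

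The call in control liver rested on few libraries. It was lost without control vehicle replicate 3 (limma adjusted p = 0.0756) or 4 (0.0566), without the libraries of high mitochondrial share (0.0553), and without replicates 9 and 10 of control GW3965 (-0.91, 0.221). Over 19 alternatives all differences were negative, and the adjusted p ran from 3.23e-04 to 0.297, with 12 below the threshold. The averaged call was kept in 25 of 26 alternatives. The exception was the fit without the libraries high in Serpina3c, which holds 1 library of Gata4LKO GW3965. The call in control liver was not kept in that fit either.

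Serpina3n, an acute phase inhibitor that traps granzyme B and leukocyte elastase, was 10397, 9293, 8962 and 10463 in control vehicle and 5117, 4454, 6396 and 8392 in control GW3965. The groups did not overlap, but the difference of -0.72 ± 0.18 missed the threshold (limma adjusted p = 0.0703), and was -0.41 without replicates 9 and 10 of control GW3965. It was -0.47 ± 0.12 averaged over genotypes (limma adjusted p = 0.0536). DESeq2 called both, at adjusted p-values of 0.0181 and 0.0114. Serpina3k, the most counted member of the family, had 129164 ± 36536 in control vehicle, 125473 ± 25651 in Gata4LKO vehicle, 107934 ± 25266 in control GW3965 and 78647 ± 30255 in Gata4LKO GW3965. Its difference with GW3965 in the libraries labelled Gata4LKO was -0.74 ± 0.27 (limma adjusted p = 0.303), or -0.45 without the libraries of high mitochondrial share. The lowest value, 46820, was in replicate 17, which had the highest mitochondrial share.

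Serpina3g, an intracellular inhibitor of cathepsins known from lymphocytes, was 39.2 to 53.5 in control vehicle and 82.1 to 95.7 in Gata4LKO vehicle. These groups did not overlap, and the difference was 0.94 ± 0.51 (limma adjusted p = 0.852). With GW3965 in control it was 233 in replicate 9 and 29 to 68.2 in the other 3 libraries. Its interaction was -1.47 ± 0.70 (limma adjusted p = 0.997), or -0.89 without replicate 9. Markers of lymphocytes and recruited myeloid cells summed to 766 to 1223 in control vehicle and to 1383 to 2393 in Gata4LKO vehicle. None of the 12 was at 0 in all 17 libraries. Of the 8 tested, 4 differences were positive and 4 negative, and Cd74 held much of the sum, at 555 ± 104 and 1082 ± 371. Their part in the Serpina3g values was not tested.

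Of the hormone carriers, Serpina7 (thyroxine-binding globulin, the main carrier of thyroid hormone in human plasma) was higher in the libraries labelled Gata4LKO. The Tbg promoter of the Cre virus takes its name from thyroxine-binding globulin, and the virus of the control groups was empty. Genotype label and virus therefore cannot be told apart for this gene, and a part of the virus was not tested. Serpina7 counts were 283, 314, 501 and 438 in control vehicle and 1217, 1573, 1730 and 1454 in Gata4LKO vehicle. With GW3965 they were 1172, 723, 365 and 232 in control and 945, 1186, 1058, 1385 and 998 in Gata4LKO. With vehicle every Gata4LKO library was more than 2-fold above every control library. With GW3965 the groups overlapped, since control replicates 9 and 10 lay far above replicates 12 and 13. Averaged over treatments, Serpina7 rose by 1.54 ± 0.24 on the log2 scale, 2.90-fold (2.06 to 4.09), with a limma adjusted p of 0.0142. This call was kept in all 17 fits that left out 1 library. Among 26 alternatives the exception was the fit without the 8 libraries high in Serpina3c, which holds 1 library of Gata4LKO GW3965 and gave a difference of 1.48 (limma adjusted p = 0.998).

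With vehicle alone the difference was 1.98 ± 0.34, 3.96-fold (2.40 to 6.52), and missed the threshold in limma (adjusted p = 0.0646). Over 17 alternatives the difference stayed between 1.85 and 2.12, while the adjusted p ran from 2.52e-05 with DESeq2 to 1.00. The authors' deposited table gives 1.96 with an adjusted p of 1.88e-05. With GW3965 the difference was 1.09 ± 0.33 (limma adjusted p = 0.351). Replicates 9 and 10, the control GW3965 libraries high in Serpina7, are also those without Gm5345, as were all 4 Gata4LKO vehicle libraries. Without them the difference was 1.92 (limma adjusted p = 0.00475). Without control GW3965 replicate 13 it was 0.71 (0.641), without the libraries of high mitochondrial share 0.69 (0.754), and over 20 alternatives the adjusted p ran up to 0.982. The interaction was -0.89 ± 0.47 (limma adjusted p = 0.997). Kupffer cell markers were higher with Gata4LKO vehicle than with control vehicle in 12 of 12 (median 0.64 on the log2 scale, 0 called), and their part in the Serpina7 values was not tested. Serpina6 (corticosteroid-binding globulin), the other hormone carrier, was 5022 ± 608, 4503 ± 557, 4962 ± 1608 and 4929 ± 821 in the 4 groups. For genotype with vehicle its difference was -0.16 ± 0.19 (limma adjusted p = 0.958), and its interaction was 0.19 ± 0.26 (0.997).

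**Figure D3:**
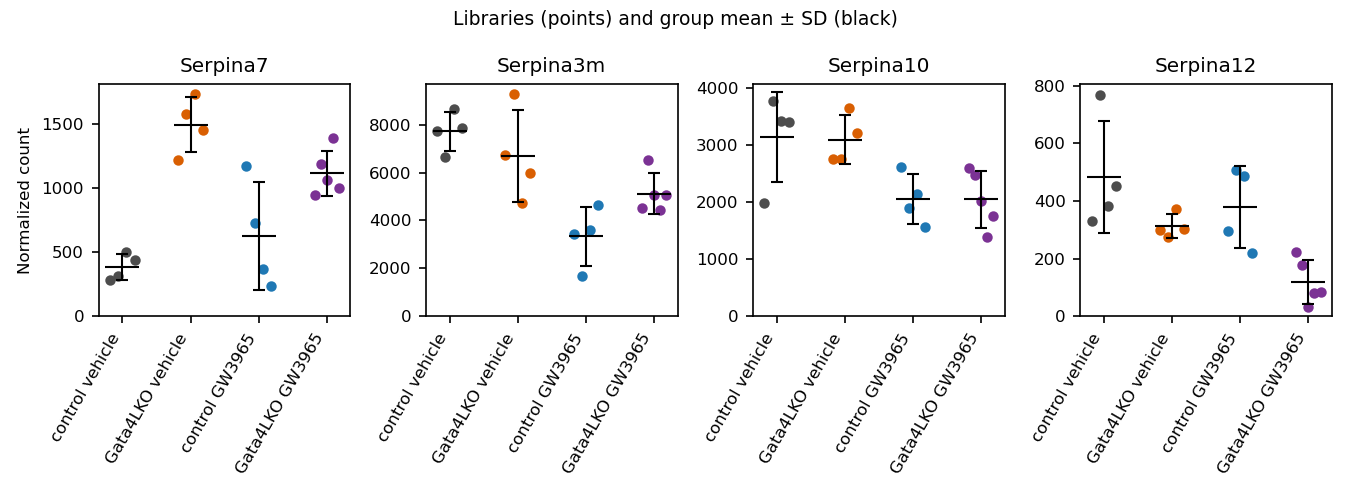
Normalized counts of Serpina7, Serpina3m, Serpina10 and Serpina12 by group, with each library as a point and the mean ± SD as black bars. Serpina7 is 283 to 501 in control vehicle and 1217 to 1730 in Gata4LKO vehicle, and control GW3965 spreads from 232 to 1172.

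Of the inhibitors of coagulation, 1 was called. Serpina10, the protein Z-dependent inhibitor of factor Xa (chr12:103614786-103631444), was 1992, 3774, 3429 and 3400 in control vehicle and 2756, 2760, 3653 and 3208 in Gata4LKO vehicle. With GW3965 it was 2616, 1904, 2140 and 1573 in control and 2605, 2481, 2022, 1393 and 1756 in Gata4LKO. In the libraries labelled Gata4LKO the treatment groups did not overlap, whereas control vehicle replicate 1 lay among the treated libraries. Averaged over genotypes Serpina10 fell by 0.61 ± 0.15 on the log2 scale, to 0.656-fold (0.529 to 0.815; limma adjusted p = 0.0452). Its difference was much the same in control (-0.60 ± 0.22) and in Gata4LKO (-0.62 ± 0.20, or -0.38 without the libraries of high mitochondrial share), and neither passed alone (limma adjusted p = 0.334 and 0.265).

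The 5 libraries of high mitochondrial share were the lowest in Serpina10 within their groups: 1992 against 3400 to 3774 in control vehicle, 1573 and 1904 against 2140 and 2616 in control GW3965, and 1393 and 1756 against 2022 to 2605 in Gata4LKO GW3965. Without these 5 libraries the averaged difference was -0.48 (limma adjusted p = 0.0285). The call was kept in 4 of the 17 fits that left out 1 library, with adjusted p-values up to 0.102. Over 26 alternatives the adjusted p ran from 0.00507 to 0.385. In the same averaged comparison, 12 of 12 sinusoidal endothelial markers were positive (median 0.38 on the log2 scale, 1 called, Cdh5 at 0.64 ± 0.10, limma adjusted p = 0.00216), as were 11 of 12 Kupffer cell markers (median 0.30, 1 called). Of the 5 tested blood markers 0 were positive (median -0.76, 1 called, Alas2 at -0.60 ± 0.14, limma adjusted p = 0.0363). The part of these cells in the Serpina10 values was not tested.

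**Figure D4:**
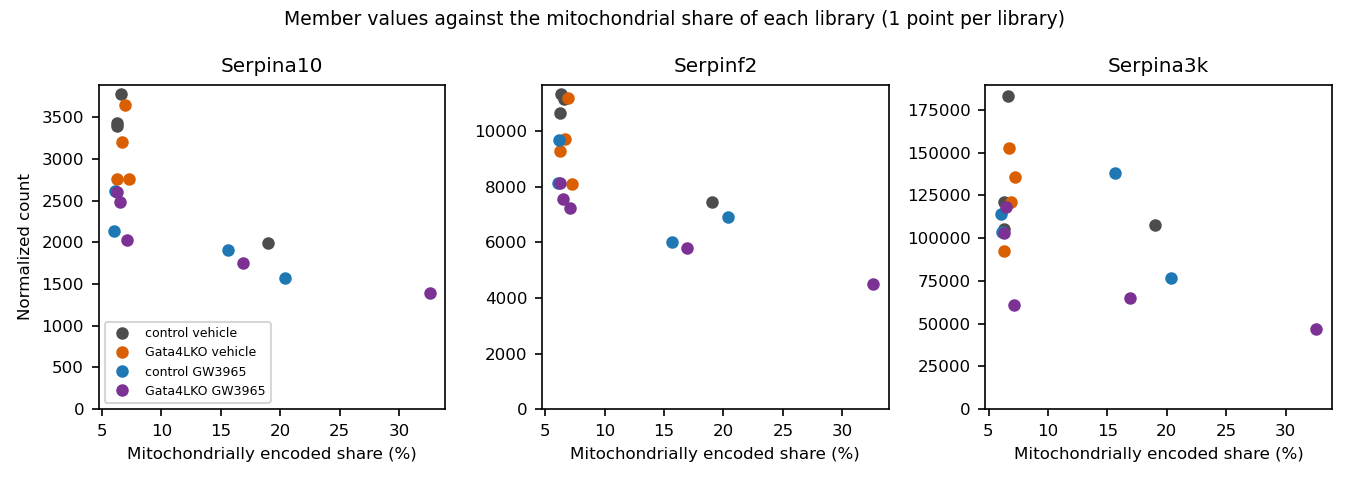
Normalized counts of Serpina10, Serpinf2 and Serpina3k against the share of counts from mitochondrially encoded genes (%), 1 point per library. The 5 libraries above 15% lie at or near the bottom of their group in Serpina10 and Serpinf2.

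Antithrombin (Serpinc1), the main inhibitor of thrombin and factor Xa, was 28676 ± 2272, 26743 ± 817, 27765 ± 1319 and 24703 ± 3957 in the 4 groups in the order above. Its difference with GW3965 averaged over genotypes was -0.09 ± 0.09 (limma adjusted p = 0.642). Libraries of high mitochondrial share were the lowest within their groups in Serpinc1 too, as they were in Serpina1b. In Gata4LKO GW3965, Serpinc1 was 20104 to 22669 in them against 23947 to 30573 in the others. Heparin cofactor II (Serpind1), a thrombin inhibitor, was 8644, 8935, 9315 and 10634 in Gata4LKO vehicle and 8046, 7782, 8163, 7648 and 6724 in Gata4LKO GW3965. These groups did not overlap, and the difference was -0.29 ± 0.10 (limma adjusted p = 0.285). Averaged over genotypes it was -0.25 ± 0.07 (limma adjusted p = 0.0999), which limma called without control vehicle replicate 1 (0.0409) and DESeq2 called at 0.0136. Protease nexin (Serpine2) was between 4.46 and 318, with no group apart from the others.

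Of the regulators of fibrinolysis, alpha-2-antiplasmin (Serpinf2), which inactivates plasmin, was 10149 ± 1827 and 9577 ± 1278 in the 2 vehicle groups, control first, and 7693 ± 1588 and 6656 ± 1483 with GW3965. The averaged difference was -0.47 ± 0.13 (limma adjusted p = 0.0811), which DESeq2 called at 0.0240. It was -0.31 without the libraries of high mitochondrial share (0.0878), and leaving out control vehicle replicate 1 gave -0.55 (0.0315). In control vehicle replicate 1, of high mitochondrial share, Serpinf2 was 7443 against 10652 to 11346 in the other 3 libraries. C1 inhibitor (Serping1), which blocks the first complement component and plasma kallikrein, was 11120 ± 1212, 10436 ± 1377, 10851 ± 1721 and 10024 ± 467. Its differences in the 7 comparisons lay between -0.10 and -0.01 on the log2 scale, with a 95% interval of 0.853-fold to 1.10-fold for GW3965 averaged over genotypes.

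Vaspin (Serpina12, chr12:104028769-104044443), described as an adipokine, had its lowest mean in Gata4LKO GW3965. Its counts were 331, 767, 383 and 450 in control vehicle, 298, 275, 371 and 304 in Gata4LKO vehicle, 296, 509, 488 and 221 in control GW3965, and 221, 176, 33.8, 80.9 and 82.6 in Gata4LKO GW3965. All 5 of the last lay below all Gata4LKO vehicle libraries, and replicate 14 met the lowest control GW3965 library at 221. With GW3965, the difference between genotype labels was -1.86 ± 0.41 (limma adjusted p = 0.137), and GW3965 against vehicle in Gata4LKO gave -1.65 ± 0.41 (0.102). DESeq2 called both, at adjusted p-values of 0.00905 and 0.0328, as did the authors' deposited table at 0.00898 and 0.0326. Over the alternatives the 2 adjusted p-values ran up to 1.00, and with replicate 14, the highest of its group, as the 1 library left of Gata4LKO GW3965 the differences were -0.69 and -0.60. The interaction was -1.30 ± 0.60 (limma adjusted p = 0.997). Of the 4 genes listed for adipose tissue, 1 was tested, Car3, with group means between 23173 and 48212. Car3 differed by -0.88 ± 0.24 between genotype labels with GW3965 (limma adjusted p = 0.252). With 1 gene the adipose content of the samples is not read out, and its part in the Serpina12 values was not tested.

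Among the members without protease targets, Serpinf1 (pigment epithelium-derived factor) was 8212 ± 1033, 7751 ± 707, 8119 ± 1075 and 7311 ± 775. Its difference for GW3965 averaged over genotypes was -0.05 ± 0.09 (limma adjusted p = 0.786). Serpinh1, a collagen chaperone of the endoplasmic reticulum, was 63.4 ± 14.6, 64.1 ± 11.1, 59.0 ± 4.55 and 69.4 ± 25.7. Its differences lay between -0.07 and 0.15. Stellate cell markers summed to 4582 to 6048 in the first 3 groups and to 5918 to 8484 in Gata4LKO GW3965. The pseudogene Serpina4-ps1 ran from 233 to 1277 across libraries, with no call.

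The intracellular clade B members were low. Serpinb6a, Serpinb9, an inhibitor of granzyme B, and Serpinb8 had means of 192, 159 and 80.1 normalized counts, and Serpinb6b and Serpinb1a, an inhibitor of neutrophil elastase, 52.7 and 33.3. None of the 5 passed in any comparison. Serpinb6a was 133 to 200 in control vehicle and 174 to 225 in Gata4LKO vehicle, a difference of 0.32 ± 0.19 (limma adjusted p = 0.897). Serpinb1a was 28.6 to 80.9 in Gata4LKO GW3965 and 7.36 to 39.4 in Gata4LKO vehicle, a difference of 1.27 ± 0.65 (limma adjusted p = 0.438). Of the 18 members not tested, 3 exceeded 10 in any library: Serpina3l-ps reached 22.9, Serpina9 17.8 and Serpina3e-ps 10.9. Serpina5, the protein C inhibitor, had 9.0 at most and 0 in 8 libraries, and Serpinb2 had 0.876 at most and 0 in 15.

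**Figure D5:**
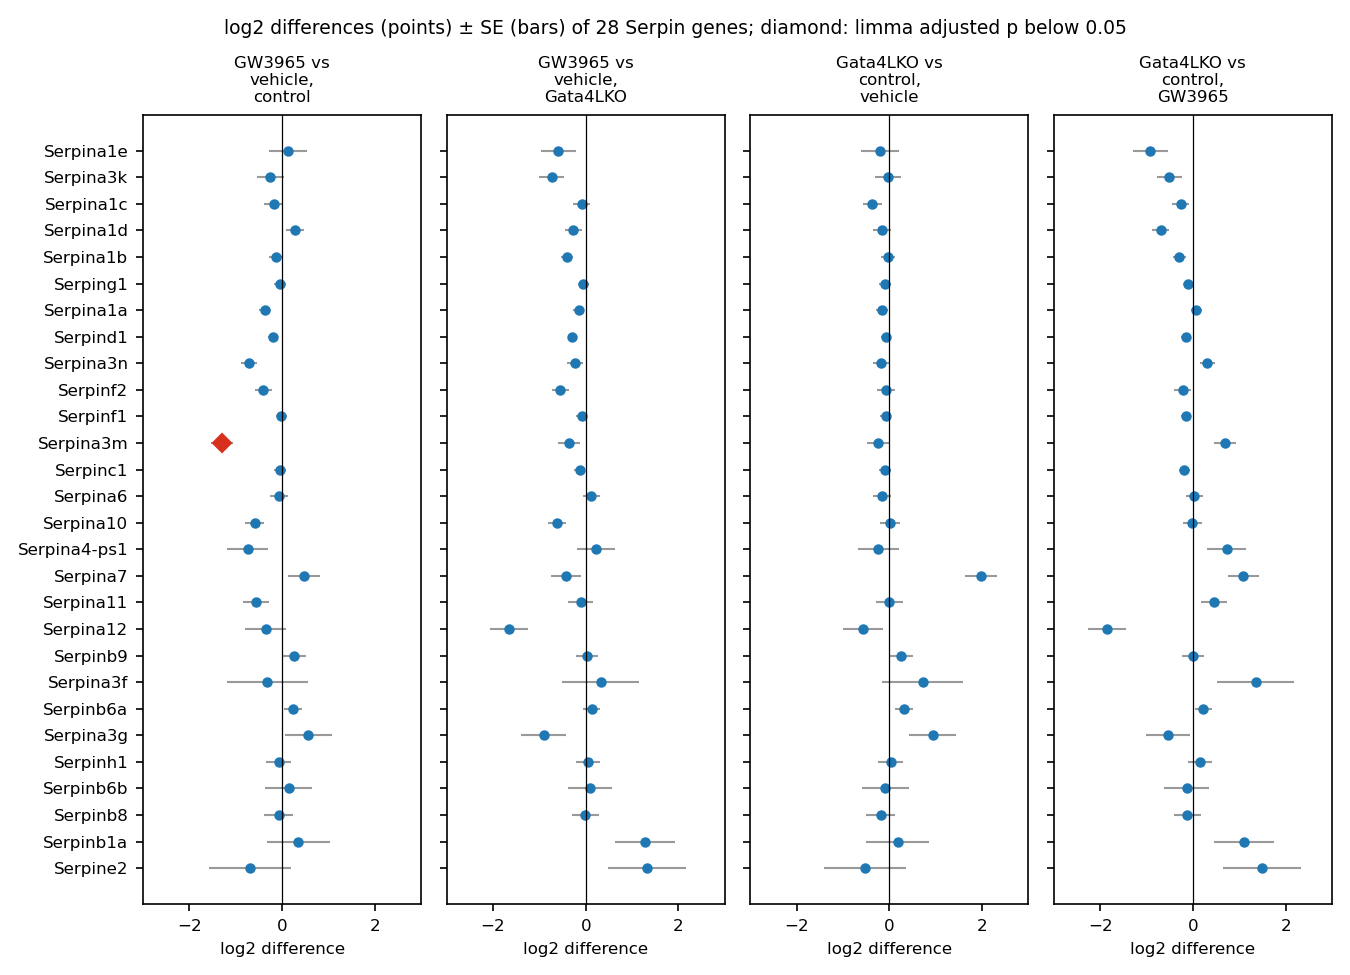
log2 differences (points) ± SE (bars) of 28 tested Serpin genes in the 4 group comparisons, ordered by level; Serpina3c is left out for its split between libraries. Only Serpina3m with GW3965 in control passes limma's adjusted threshold (diamond), while Serpina7 reaches 1.98 for genotype with vehicle and Serpina12 -1.86 for genotype with GW3965.

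Read across the comparisons, calls among the 30 tested members were few, as they were among all 13379 genes tested. For GW3965 in control, limma called 1 member, edgeR 1 and DESeq2 3, where they called 0.792%, 0.755% and 1.77% of all genes. An unadjusted p below 0.05 was reached by 4 members (13.3% of the 30, against 8.96% of all genes). Groups did not overlap for 3 members, all lower, against 2.71% of all genes lower without overlap.

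For GW3965 in the libraries labelled Gata4LKO, limma and edgeR called 0 members and DESeq2 1, where they called 0.247%, 0.232% and 1.49% of all genes. An unadjusted p below 0.05 was reached by 6 members (20%, against 12% of all genes). Again 3 members did not overlap, all lower, against 2.34% of all genes. Averaged over genotypes, limma and edgeR called 2 (Serpina3m and Serpina10), both lower, and DESeq2 6, where they called 1.78%, 1.73% and 4.02% of all genes. Here 9 members were at an unadjusted p below 0.05 (30%, against 15.3%).

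For genotype with vehicle, limma and edgeR called 0 members and DESeq2 1 (Serpina7), where they called 0.0149%, 0.0149% and 0.423% of all genes. At an unadjusted p below 0.05 there was 1 member (3.33%, against 6.15%). Groups did not overlap for 2 members, both higher, against 3% of all genes. For genotype with GW3965, limma and edgeR called 0 and DESeq2 3, where they called 0.0598%, 0.0374% and 0.61% of all genes. At an unadjusted p below 0.05 there were 7 members (23.3%, against 6.47%), and 1 member did not overlap, lower (1.14% of all genes). All of the 7 except Serpina7 lie in the chromosome 12 stretch, where some copies share exon windows, so they are not independent. The groups compared here hold 0 of 4 (control) and 4 of 5 (Gata4LKO) libraries high in Serpina3c. The part of that split in the 7 was not tested. Genotype averaged over treatments gave 1 member in limma, 1 in edgeR and 2 in DESeq2, where 0.224%, 0.194% and 0.964% of all genes were called, with 4 at an unadjusted p below 0.05 (13.3%, against 7.19%). The interaction gave 0 members by any of the 3 tools, with 3 at an unadjusted p below 0.05 (10%, against 4.65%), where limma called 0.0149%, edgeR 0% and DESeq2 0.194% of all genes. The medians of the 30 members were small, between -0.12 and -0.04 on the log2 scale, beside -0.01 and 0.00 over all genes.

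Of the proteases and cofactors that serpins act on, 22 were tested and 1 was called with GW3965 in control: F11, the coagulation factor XI zymogen, fell from 2878 ± 117 to 1666 ± 334, by 0.81 ± 0.18 on the log2 scale (limma adjusted p = 0.0492). It also fell averaged over genotypes, by 0.69 ± 0.13 (limma adjusted p = 0.00699), while in the libraries labelled Gata4LKO alone the difference was -0.58 ± 0.18 (0.210). The cathepsin Ctss had the smallest p of the list for genotype with vehicle, at a difference of 0.68 ± 0.18 (limma adjusted p = 0.306). List medians were -0.18 and -0.17 for GW3965 in control and in Gata4LKO.

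The acute phase genes, a list to which Serpina3n would belong, had 28 of 30 negative differences with GW3965 in control (median -0.35 on the log2 scale, against -0.01 over all genes), and 2 were called. Lcn2, an iron siderophore-binding protein, fell from 234 ± 127 to 56.2 ± 28.3, by 2.01 ± 0.33 (limma adjusted p = 0.00793). Il6ra, the interleukin-6 receptor, fell from 4240 ± 467 to 2216 ± 641, by 0.98 ± 0.17 (limma adjusted p = 0.0136). With GW3965, Lcn2 was higher in the libraries labelled Gata4LKO than in control, at 202 ± 37.7, by 1.91 ± 0.31 (limma adjusted p = 0.0301). In the libraries labelled Gata4LKO, GW3965 left 17 of 30 positive with a median of 0.04 and 0 called in limma. Beside these, Kupffer cell markers had 12 of 12 positive differences with GW3965 in control (median 0.49, with Cd5l called at 1.21 ± 0.21, limma adjusted p = 0.0126). Sinusoidal endothelial markers were also positive in 12 of 12 (median 0.27, 0 called), with sums of 5329 to 5866 in control vehicle and 5554 to 9215 in control GW3965. Blood markers were positive in 0 of 5 tested (median -0.69, 0 called), with sums of 2624 to 4295 and 1710 to 2806. The part of these cells in the Serpina3m and acute phase values was not tested.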

How the data were processed

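Liver mRNA of 17 libraries was used. Reads were aligned with STAR 2.6.0c to mm10, per the submitters' processing notes, which also name FastQC and DESeq2. Which counter, annotation and strand setting were used is not stated in the labels. The authors deposited a normalized signal: gene reads scaled by a size factor of the library, since 100% of values above 0 lay within 0.05 read of a whole number (largest distance 0.00101 read). Their comparison tables give a log2 fold change, p-values and adjusted p-values, per the file headers. Genes without a symbol numbered 422 of 24676.

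Groups followed the titles. limma-trend (limma 3.58.1, R 4.3.3) was fitted on log2(normalized count + 1) over all 17 libraries with 1 coefficient per group, 7 contrasts and Benjamini-Hochberg adjustment over 13379 genes (10 or more normalized counts in 4 or more libraries); a call is an adjusted p below 0.05. Folds are on the log2(value + 1) scale and understate changes of low genes. Scripts were tested on simulated data. edgeR 4.0.16 (quasi-likelihood, TMM) and DESeq2 1.42.0 were run on the recovered whole reads as alternatives, with other filters, a pseudocount of 10, a mean of at least 50, scaling without mitochondrially encoded genes, only the groups compared, and libraries left out. Positions, exon lengths and transcripts came from GENCODE M21, in which all 48 members matched, and coding sequences were compared with Biopython 1.88 and mafft 7.526. Upstream windows came from RefSeq (GRCm38.p6). In every pair of replicates the reads differed by more than sampling noise.

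Named with values were members called in any contrast, the 10 highest per kb, the inhibitors of coagulation, fibrinolysis and complement, the hormone carriers, Serpina3n, Serpinh1, Serpinf1 and Serpina12, and the 3 members with the smallest p in each contrast. Of the other lists (serpin target proteases, acute phase, cell markers) the called genes or the smallest p were named. Serpina3f, Serpina11, Serpina4-ps1, the clade B genes and the untested members were named after their values were seen. For 1 tested member the values are not reported here, although it is in all fits and counts. The members and lists were chosen with earlier results of these data known.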

Additional observations from a re-analysis of the deposited data

Results flagged for a closer look

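In 6 of the 120 sets of libraries (30 tested members in 4 groups), 1 library lay further from the others than Dixon's 95% criterion allows, which chance gives in about 1 of 20 sets. Control vehicle replicate 1, of high mitochondrial share, was the high library in 3 of them. There Serpina1c was 41241 against 21946 to 22393 in the other 3 libraries, Serpinf1 was 9758 against 7618 to 7781, and Serpinb1a was 75.8 against 8.52 to 13.4. Serpina1e was 100140 in Gata4LKO GW3965 replicate 14, the library of that group low in Serpina3c, against 43844 to 59545. Serpina3f was 123 in control GW3965 replicate 9 against 17.0 to 35.0. Serpine2 was 318 in Gata4LKO GW3965 replicate 15 against 4.46 to 92.7.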

How the results depend on the processing

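Of 756 refits of the 34 differences named, 704 kept their direction and side of the threshold, 26 lost a call, 24 gained one and 2 reversed. DESeq2 called 1 member for genotype with vehicle, 3 for genotype with GW3965, 3 for GW3965 in control, 1 for GW3965 in Gata4LKO, 6 for GW3965 averaged over genotypes and 2 for genotype averaged over treatments. For genotype with vehicle the count was 1 (Serpina7) when counts were scaled outside mitochondrially encoded genes, without the libraries of high mitochondrial share, and with only the groups compared. For GW3965 in control it was 0 in the last 2 of these settings. With no filter, GW3965 averaged over genotypes gave 1. Leaving out 1 library at a time gave 1 to 4 members for GW3965 averaged, 0 to 2 for GW3965 in control, 0 to 1 for GW3965 in Gata4LKO, 1 to 1 for genotype averaged, and 0 in the other comparisons. The 3 alternatives that follow were chosen after seeing the data. Without the libraries high in Serpina3c, 1 library of Gata4LKO GW3965 (replicate 14) remained, assumed to vary like the other groups, so values of that group have no check by replicates. The counts were 0 for GW3965 in control, GW3965 averaged and genotype averaged, and 2 differences that had not passed changed sign with that lone library: Serpina1b for genotype with GW3965 to 0.049 and Serpina12 for the interaction to 0.12. Without the libraries low in Gm5345, the counts were 1 for genotype with GW3965 (Serpina7) and 0 for GW3965 in control. Without replicates 9 and 10 of control GW3965, they were 1, 0, and 1 for GW3965 averaged. The Serpin share in control GW3965 was 2.58% without mitochondrially encoded genes in the total. The share of all genes called in each refit is not set beside these counts. They describe how calls move with the setting and are not a result about the family. Apart from fewer libraries, the cause of these changes was not tested. No paired analysis was possible because library numbers are not shared between groups. Members below about 10 normalized counts, such as Serpina5, are limited by counting error.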
